A study of Mus musculus with 40 samples.

Results

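Follicular B cells lacking both Tet2 and Tet3 (double knockout, DKO) were compared with follicular B cells lacking Tet3 alone (Tet3KO), a contrast that asks what the loss of Tet2 adds when Tet3 is already missing. Methylation had been measured by reduced representation bisulfite sequencing (RRBS), a method that cuts DNA at CCGG sites and reads cytosine methylation in the CpG-rich fragments, and was tabulated in tiles of 100 bp. The tiles compared were the 335952 autosomal tiles with a level in each of the 3 Tet3KO libraries (19, 20 and 21) and the 3 DKO libraries (22, 23 and 24), of 932955 autosomal tiles and 971845 tiles in all. The Tet3KO libraries came from a male, a female and a male mouse of 7 weeks, and the DKO libraries from 2 males of 7 weeks and a female of 6 weeks, all C57/bl. Per the labels the knockouts were inducible and driven by the MB1 promoter, so the deletion concerns B-lineage cells, and its efficiency was not analysed here. Follicular libraries of wild-type mice (WT, libraries 13 to 15, 2 males and a female of 6 or 8 weeks) and of mice lacking Tet2 alone (Tet2KO, libraries 16 to 18, females of 6 or 8 weeks) served as reference, as did 12 pro-B libraries of the same 4 genotypes. Whether each library is a mouse of its own is not stated in the labels, and p-values measure only the spread between libraries. In each genotype the pro-B and follicular libraries have the same sexes and ages in the same order, so both stages may come from the same mice.

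TET enzymes are dioxygenases that oxidise 5-methylcytosine to 5-hydroxymethylcytosine and further products, and so start the removal of methylation from DNA. Tet2 and Tet3 are the family members mainly expressed in B-lineage cells, and in many tissues the loss of one is partly made good by the other. Regulatory elements such as enhancers commonly lose methylation as a lineage matures, whereas CpG islands at promoters stay unmethylated in most cells and gene bodies and intergenic DNA stay highly methylated. Follicular B cells are the mature resting B cells of the spleen and lymph nodes, and pro-B cells are their bone marrow precursors.

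The depth behind the levels is unknown, because the table holds no coverage. The 6 compared libraries had a level at 411441 (Tet3KO library 21) to 579362 tiles (Tet3KO library 20). Values of exactly 0 or 100%, which few reads favour, made up 28.6% to 43.8% of the levels in these libraries at the compared tiles, with the highest share in Tet3KO library 21 and 33.3% to 37.2% in DKO. Pro-B Tet3KO library 8 had a level at only 24600 tiles and is set apart below. The cell type could not be checked against marker genes, since the coordinates (taken as mouse build mm9) were used without gene names, and the state of Tet2 and Tet3 themselves was not examined.

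Taken over all tiles, removing Tet2 from Tet3-deficient follicular cells left methylation nearly where it was. The mean level was 60.7%, 61.3% and 61.2% in Tet3KO libraries 19, 20 and 21, and 61.6%, 60.9% and 61.6% in DKO libraries 22, 23 and 24. DKO library 23 lay inside the Tet3KO range, so the groups overlapped. The difference of 0.334 percentage points (SE 0.295) had a two-sided exact permutation p of 0.3, and 3 against 3 libraries cannot give less than 0.1. It was 0.146 points without Tet3KO library 19, 0.213 without DKO library 22, 0.229 without DKO library 24 and 0.560 without DKO library 23. Pairs of libraries differed on average by 5.06 to 6.02 points per tile between the genotypes, by 4.74 to 5.64 within Tet3KO and by 5.41 to 5.56 within DKO.

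Tiles were then split by their level in follicular WT libraries, which took no part in the contrast. At the 108011 tiles under 20% in WT, largely unmethylated DNA, Tet3KO had a level of 3.01% ± 0.207 and DKO one of 3.59% ± 0.274 (SD, n = 3 each). All 3 DKO libraries (3.77%, 3.28% and 3.73%) lay above all 3 Tet3KO libraries (2.77%, 3.14% and 3.13%), 0.579 points apart on average (SE 0.198, exact permutation p = 0.1). The libraries' median level over these tiles differed in the other direction, by -0.0581 points. At the 38016 tiles of 20 to 80% in WT the levels were 62.1% ± 1.62 and 63.5% ± 1.94, and DKO library 23 at 61.2% again lay within the Tet3KO range (difference 1.35 points, SE 1.46, exact permutation p = 0.4). This difference was 0.423 points without Tet3KO library 19, 0.629 without DKO library 22 and 2.46 without DKO library 23. At the 189619 tiles over 80% in WT the difference was -0.00900 points (SE 0.124, exact permutation p = 0.8). Over these 4 tile sets the Benjamini-Hochberg adjusted p-values ran from 0.4 to 0.8.

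The same loss of Tet2 was measured with Tet3 present, in Tet2KO against WT, from 6 other libraries and over the tiles with a level in all 12 follicular libraries. At the intermediate tiles it amounted to 2.75 points (56.9% ± 0.858 in WT, 59.7% ± 0.0949 in Tet2KO, n = 3 each, exact permutation p = 0.1), against 1.35 points without Tet3. At the low tiles it amounted to 0.404 points (exact permutation p = 0.1), against 0.573 without Tet3. The Tet2KO libraries were all from females and most WT libraries from males, so sex is partly confounded with Tet2 loss in Tet2KO against WT. Neither pair of differences could be told apart. The difference between the differences was -1.40 points (SE 1.54) at intermediate tiles and 0.169 points (SE 0.202) at low tiles, with exact permutation p of 0.51 and 0.66 when the Tet2 labels were permuted within each Tet3 status (smallest possible p 0.005; adjusted p 1 over the 4 sets).

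Single tiles showed what the means did not: a small set of tiles with higher methylation in DKO, most of them low in Tet3KO. Calls asked a limma p under 0.05 after Benjamini-Hochberg adjustment together with 20 points or more between the 2 means. By this rule 109 tiles were higher in DKO (0.0324% of the tiles tested) and 6 were lower (0.00179%). At the 109 tiles the median level was 9.76% in Tet3KO and 74.9% in DKO, and the median difference was 54.8 points, with a range of 20.1 to 93.7, beside a median of 0 over all tiles. In every one of the 109 tiles the 3 DKO libraries lay above the 3 Tet3KO libraries, a separation seen at 4.21% of all tiles (and in the lower direction at 3.3%). With 20 points asked as well, 0.531% of all tiles were separated in the higher and 0.179% in the lower direction. In 78 of the 109 the Tet3KO mean was under 20%. The DKO mean was over 80% in 44 tiles, between 40 and 80% in 48 and under 40% in 17. Tet3KO was listed at 0 in all 3 libraries at 10 of these tiles.

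The calls rest on the spread estimated from all 24 libraries. With only the 6 compared libraries in the fit, which leaves 4 residual degrees of freedom, limma called 0 tiles in either direction, with 9360 higher and 6891 lower tiles at an unadjusted p under 0.05. With all 24 libraries 2.83% of tiles were higher and 1.92% lower at an unadjusted p under 0.05, together below 5%.

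Differences of this kind were uneven across the classes of tile. Of the 109 tiles, 98 were under 20% in WT, a class that holds 32.2% of the tiles, 8 were intermediate and 3 were over 80%. The called share was 0.0907% of the low tiles, 0.0210% of the intermediate tiles and 0.00158% of the high tiles. The fit's standard error per tile differed as well, with a median of 0.861 points at low tiles, 11.7 at intermediate tiles and 4.37 at high tiles, so a difference of given size was harder to call at intermediate tiles. Counting only size, 868 low tiles (0.804%) were higher in DKO by 20 points or more and 79 (0.0731%) lower. The corresponding counts were 1520 (4%) and 746 (1.96%) at intermediate tiles and 333 (0.176%) and 306 (0.161%) at high tiles. Large differences thus leaned towards higher methylation in DKO at low and intermediate tiles and were nearly balanced at high tiles. At low tiles Tet3KO stood at 3.01% on average, so few of them could fall by 20 points and the lean was favoured by the floor. At high tiles, with Tet3KO at 93.9%, the ceiling likewise limited rises. These counts carry no test.

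Position gave a further contrast that the choice of tiles had not used. Each tile was classed by how many other tiles of the table started within 500 bp on either side, up to 10 in all; runs of tiles mark CpG-dense DNA such as CpG islands. Among the tiles that were low in WT, 43 of the 7501 isolated tiles (at most 2 neighbours) were called higher, or 0.573%. Of 45476 tiles with 3 to 6 neighbours 52 were called (0.114%), and of 55034 tiles with more than 6 neighbours only 3 (0.00545%). Called low tiles thus lay mostly outside dense runs, although the dense tiles had the smaller median standard error (0.606 points against 3.57 at isolated tiles). The same order held for low tiles higher by 20 points or more, at 5.28%, 0.946% and 0.0763%. It also held for those lower by as much, at 0.28%, 0.108% and 0.0164%, and counts by size alone favour tiles that vary more. Over tiles of every WT class, 0.0397% of isolated tiles, 0.0397% of those with 3 to 6 neighbours and 0.00434% of dense tiles were called higher. The 109 tiles lay on all 19 autosomes, from 2 on chromosome 12 to 12 on chromosome 7.

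Joining called tiles within 500 bp gave 97 regions, 9 of which held 2 or 3 called tiles, with a greatest length of 300 bp. The 9 were named by size of difference, followed by the 3 single tiles with the largest difference. Their adjusted p-values ran from 2e-06 to 0.0452. They were picked on the libraries in which they are measured, so their differences are given as a description; the SE given for a region is that of the 3 against 3 library values, not of limma.

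The first region, chromosome 11, 5058301 to 5058500, stood at 9.13%, 2.54% and 5% in Tet3KO libraries 19 to 21 and at 86.8%, 80.1% and 83.5% in DKO libraries 22 to 24 (difference 77.9 points, SE 2.72). Follicular WT (2.47% ± 2.2) and Tet2KO (5.397% ± 5.07) stood at levels like that of Tet3KO, and of the 4 follicular genotypes DKO alone was highly methylated. Chromosome 5, 123774301 to 123774600, stood at 9.15%, 8.03% and 8.43% in Tet3KO and at 82.1%, 90.4% and 82.8% in DKO (76.5 points, SE 2.68). Here too WT (6.64%) and Tet2KO (7.31%) were low. Chromosome 10, 79542701 to 79542900, stood at 7.44%, 11.6% and 6.82% in Tet3KO and at 86.4%, 83.4% and 79.5% in DKO (74.5 points, SE 2.49). Chromosome 14, 34003101 to 34003400, stood at 4.36%, 11.8% and 2.22% in Tet3KO and at 75.9%, 75.9% and 75.1% in DKO (69.5 points, SE 2.91). The DKO libraries of this region lay closer together (SD 0.453) than those of any other named region that was higher in DKO.

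The other regions of several tiles varied more in their DKO level. Chromosome 7, 118067001 to 118067300, rose from 19.96% ± 2.62 in Tet3KO to 80.7% ± 6.31 in DKO, with WT at 8.43% ± 0.894 and Tet2KO at 7.12% ± 2.2 (n = 3 each). At chromosome 9, 44379101 to 44379300, the Tet3KO libraries already stood at 38.4%, 44.1% and 53.4% and the DKO libraries at 97.3%, 91.0% and 100%, whereas WT was at 1.13% ± 0.31 and Tet2KO at 10.05% ± 2.85. Tet3KO thus lay above WT at this region, and DKO lay higher still; the region lost its call with libraries centred and with sex and age strata as a covariate. Levels short of full methylation in DKO were seen at 3 further regions. Tet3KO had 7.72% ± 3.48 and DKO 65.5% ± 3.44 at chromosome 18, 50206001 to 50206200. Tet3KO had 6.84% ± 3.71 and DKO 46.6% ± 6.38 at chromosome 4, 122917301 to 122917500, a region not called on a logit scale or with sex and age strata. At chromosome 2, 103735501 to 103735700, the levels were 10.5% ± 3.2 in Tet3KO against 47.2% ± 8.52 in DKO, and the call was lost with sex and age strata.

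Of the single tiles, chromosome 17, 86866801 to 86866900, was listed at 0 in all 3 Tet3KO libraries and stood at 100%, 85.7% and 95.2% in DKO, the largest difference of all called tiles (93.7 points, SE 4.20). On chromosome 6, the tile from 55244801 to 55244900 had 10.4% ± 4.9 in Tet3KO and 96.0% ± 4.31 in DKO, and the tile from 53398901 to 53399000 had 1.67% ± 2.89 and 86.2% ± 14. The latter varied most among the DKO libraries (72%, 86.7% and 100%) and lost its call on a logit scale and when Tet3KO library 19, 20 or 21 or DKO library 24 was left out. The tile at 55244801 lost it on a logit scale and without Tet3KO library 21. All 3 single tiles lost their calls with sex and age strata as a covariate.

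**Figure D1:**
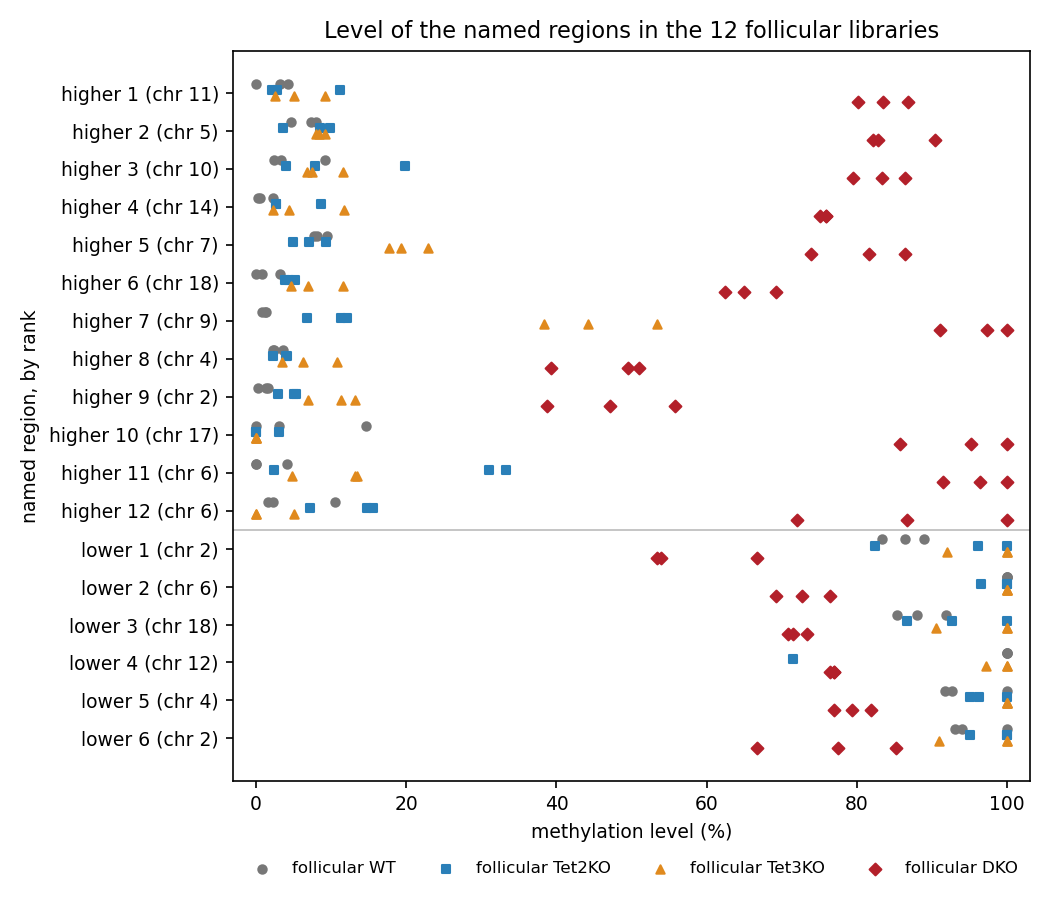
Methylation level (%, x axis) of the 12 named regions higher and the 6 tiles lower in DKO than in Tet3KO (y axis, by rank, with the chromosome) in the 12 follicular libraries, 1 symbol per library and genotype. In the 12 higher regions the DKO diamonds lie right of all other symbols, and at the chromosome 9 region the Tet3KO triangles lie between 38.4% and 53.4%; where a genotype shows fewer symbols, values coincide or are missing.

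The 6 lower tiles were single tiles and close to fully methylated in Tet3KO. Chromosome 2, 97118201 to 97118300, stood at 92%, 100% and 100% in Tet3KO and at 53.8%, 66.7% and 53.3% in DKO (difference -39.4 points, SE 5.11, limma adjusted p = 0.0118). Chromosome 6, 75028001 to 75028100, was at 100% in all Tet3KO libraries and at 72.7%, 76.5% and 69.2% in DKO (-27.2 points, adjusted p = 0.000730). Chromosome 12, 74684501 to 74684600, was at 99.05% in Tet3KO and 76.8% in DKO (-22.3 points). The others were chromosome 18, 61801401 to 61801500 (-24.96 points), chromosome 4, 93138601 to 93138700 (-20.6 points), and chromosome 2, 21711601 to 21711700 (-20.5 points). WT levels at the 6 tiles lay between 86.2% and 100%. Tet2KO means lay between 92.8% and 98.9% at the 5 tiles with levels in all 12 follicular libraries. At the tile from 74684501 only Tet2KO library 17 had a level, 71.4%, below the DKO mean. With 30 points asked in place of 20, only the first of the 6 was called, and with sex and age strata as a covariate none of the 6 was. On a logit scale 2 of the 6 kept their call, those at 75028001 and 74684501. Without a DKO library the number of lower tiles was 31 to 35, and without Tet3KO library 19 it was 11.

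Both single knockouts lay near WT at many of the 109 higher tiles, but at a smaller share of these than of all tiles. Over the 108 of them with levels in at least 2 libraries of every follicular group, WT had a mean of 9.78% ± 0.193 and DKO of 69.5% ± 1.23 (SD, n = 3 each). The single knockouts had means of 15.05% ± 0.645 (Tet2KO) and 16.4% ± 0.635 (Tet3KO). In 64 of the 108 the Tet2KO and Tet3KO means both lay within 10 points of WT, against 301188 of the 334858 tiles with such levels in the whole set. Tet3KO exceeded WT by 20 points or more in 12 tiles and Tet2KO in 9, with 3 tiles in common, while DKO exceeded WT by that much in 102. Among the 334858 tiles these counts were 3479 (Tet3KO), 1760 (Tet2KO), 826 (both) and 5800 (DKO), so rises in the single knockouts were more frequent at the called tiles. DKO had the highest mean of the 4 genotypes in 107 of the 108, and in 99637 of the 334858. The comparisons with WT and Tet2KO share the DKO or Tet3KO libraries on which the tiles were chosen, so these values describe the tiles and are not a further test.

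The levels of Tet2KO and WT did not enter the contrast, although their spread, like that of the pro-B libraries, entered the estimate behind the calls and so favoured tiles that vary little in them. There the cells without Tet2 were higher by a smaller amount. Over the 108 tiles Tet2KO libraries stood at 14.3%, 15.4% and 15.5% and WT libraries at 9.99%, 9.73% and 9.62%, without overlap. The difference was 5.27 points (SE 0.389, exact permutation p = 0.1), against 53.1 points between DKO and Tet3KO, where the tiles had been chosen for it. All Tet2KO libraries came from females and most WT libraries from males, so Tet2 loss and sex are partly confounded in this comparison. Of the 105 tiles with levels in all 12 libraries, Tet2KO lay wholly above WT in 21 and wholly below in 4. Over all tiles the shares were 5.05% and 3.15%. Since 98 of the 109 called tiles were under 20% in WT, with little room to fall, all tiles are an unlike background. The median difference was 3.75 points at the 105 tiles and 0 over all tiles. With tiles chosen from the 6 compared libraries alone (1785 tiles higher in DKO by 20 points without overlap, a choice made after the data were seen), the Tet2KO difference was 6.46 points over the 1773 with enough follicular levels (SE 0.533, exact permutation p = 0.1). Of 1677 such tiles with all 12 levels, Tet2KO lay wholly above WT in 380 and wholly below in 30.

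**Figure D2:**
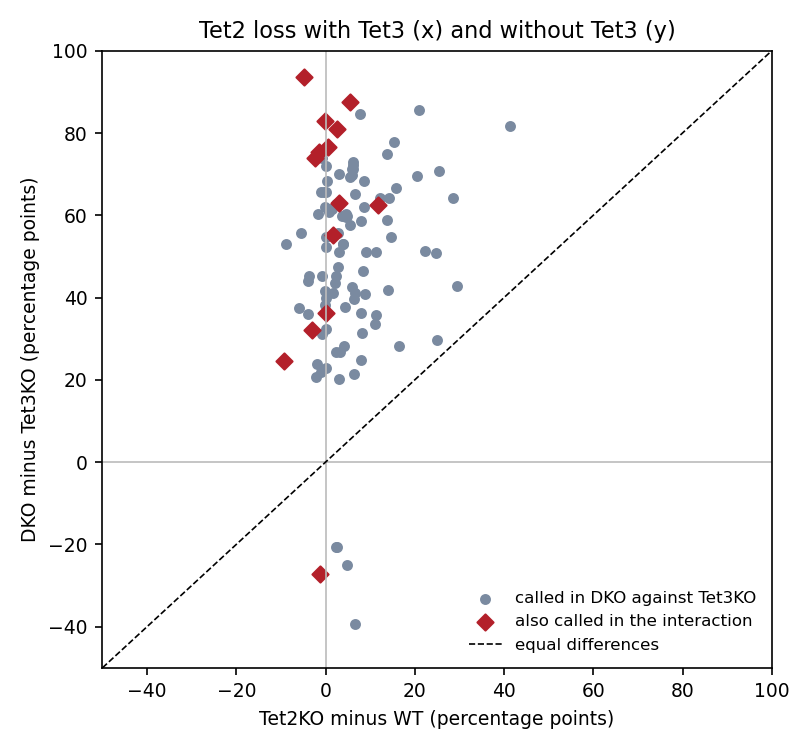
Difference made by Tet2 loss at each called tile, in percentage points, with Tet3 present (Tet2KO minus WT, x axis) and without Tet3 (DKO minus Tet3KO, y axis), for the 105 higher and 5 lower tiles with a level in all 12 follicular libraries. All 105 higher tiles lie above the dashed line of equal differences, a position favoured by choosing them on the y axis; red diamonds mark the 14 tiles at which the 2 differences themselves differed by limma.

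Whether Tet2 loss acted differently with and without Tet3 was tested tile by tile with the contrast of DKO minus Tet3KO against Tet2KO minus WT, whose 2 parts share no library. Over the 324168 tiles with a level in all 12 follicular libraries, 13 tiles had a larger gain without Tet3 (0.00401%) and 1 a larger loss (0.000308%), at an adjusted p under 0.05 and at least 20 points. All 13 were among the 109 tiles higher in DKO and the other was among the 6 lower. At the 13 tiles Tet2KO minus WT ran from -9.33 to 11.7 points, and Tet2KO lay wholly above WT in none of them and wholly below in 1. At chromosome 17, 86866801 to 86866900, the interaction was 98.5 points (SE 10.3, limma adjusted p = 0.00657), and WT stood at 5.92%, Tet2KO at 1.04% and Tet3KO at 0. At chromosome 11, 5058301 to 5058400, it was 82.0 points (SE 9.44, adjusted p = 0.00657), with group means of 0.366% (WT), 5.84% (Tet2KO), 5.996% (Tet3KO) and 93.5% (DKO). The remaining called tiles missed the threshold, which does not show that Tet2 loss acted alike there. The count of 13 was 27, 44 or 38 without DKO library 22, 23 or 24 and 41 with only the 12 follicular libraries in the fit. It was 7 on a logit scale, of which 5 were among the 13. With sex as a covariate it was 11 (10 shared), and with sex and age strata 12 (6 shared).

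At the pro-B stage, in libraries whose levels did not enter the contrast, the same genotypes differed in the same direction. Both stages may come from the same mice, so the pro-B comparison may not be independent of the follicular one. Over the 109 tiles, less the one without enough follicular levels, pro-B DKO libraries 10, 11 and 12 stood at 66.9%, 62.1% and 54.7% (99, 80 and 47 tiles with a level). The level was 27.2% and 28.9% in pro-B Tet3KO libraries 7 and 9 (83 and 76 tiles), and library 8 had a level at 2 tiles, both 0. The groups did not overlap, with a difference of 42.5 points with library 8 and 33.2 points (SE 3.64) without it (exact permutation p = 0.1 for both, the smallest possible). Since these libraries cover different tiles, the difference was also taken at the 33 tiles with a level in all 5 deeper libraries, where it was 31.7 points (50.2% ± 3.55 in DKO, n = 3, and 18.5% ± 0.805 in Tet3KO, n = 2, exact permutation p = 0.1). Pro-B DKO lay wholly above Tet3KO libraries 7 and 9 in 20 of the 33 tiles and wholly below in 1. Over all 154281 such tiles the shares were 5.56% and 4.02%, an unlike background, since Tet3KO at 18.5% left falls less room than rises at the 33 tiles. Calls from the 12 follicular libraries alone, in which pro-B spread had no part, gave 30.1 points over 168 tiles without library 8 (SE 6.97, exact permutation p = 0.1). The wider choice of 1773 tiles from the 6 compared libraries gave a smaller difference, 15.01 points without library 8 (SE 6.06, exact permutation p = 0.2) and 19.9 points with it (exact permutation p = 0.1). At 31 tiles with levels in every pro-B library but 8, WT stood at 5.28% to 8.88%, Tet2KO at 12.98% to 18.05%, Tet3KO at 15.7% and 16.9% and DKO at 46.4% to 53.0%.

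**Figure D3:**
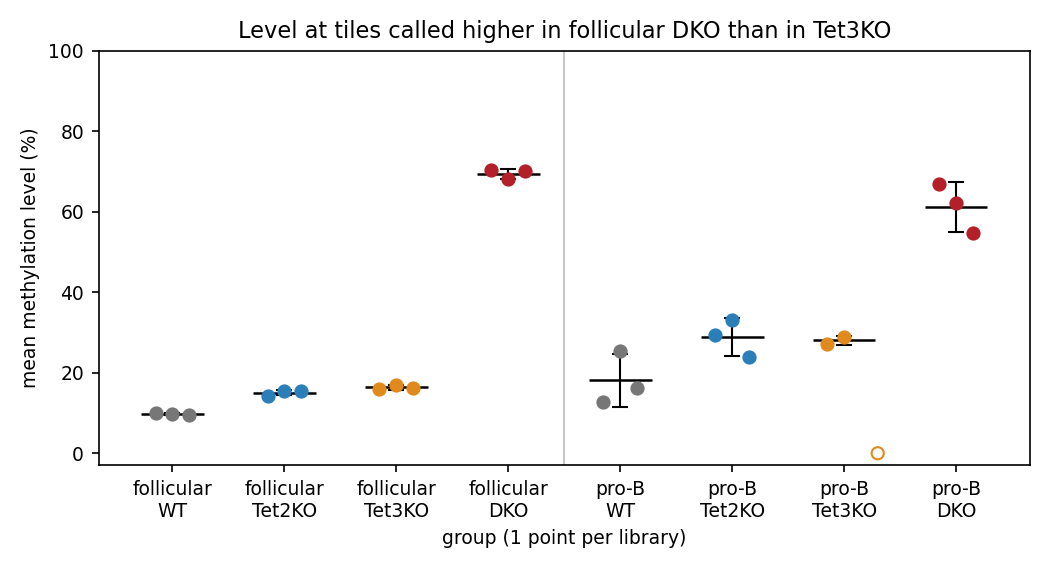
Mean methylation level (%, y axis) at the 108 tiles called higher in follicular DKO than in Tet3KO, by group (x axis), with 1 point per library and bars for the mean and SD over libraries; the open circle is pro-B Tet3KO library 8, which had 2 of these tiles and is left out of its group's mean. Follicular DKO (68.1% to 70.3%) and Tet3KO (15.8% to 17.1%) are the levels compared to choose the tiles; the pro-B libraries, with DKO between 54.7% and 66.9%, entered that choice only through the estimate of the spread.

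The named regions differed among themselves at the pro-B stage. Chromosome 7, 118067001 to 118067300, stood at 6.35% and 20.1% in pro-B Tet3KO libraries 7 and 9 and at 89.0%, 94.3% and 86.7% in pro-B DKO libraries 10, 11 and 12, much as in follicular cells. At chromosome 14, 34003101 to 34003400, the pro-B levels were 14.96% and 31.1% in Tet3KO against 92.1%, 90.8% and 79.1% in DKO. DKO library 12 had no level there at the tile from 34003301. The region on chromosome 18 at 50206001 was already at 26.8% and 60% in pro-B Tet3KO, against 79.9%, 91.7% and 69.8% in DKO. The 60% of library 9 rests on the tile at 50206101 alone. At that tile Tet3KO library 7 stood at 35.6% and the DKO libraries at 90.8%, 100% and 77.8%. These regions were low in pro-B WT as well, with means of 3.35%, 4.998% and 3.78%. The region on chromosome 9 at 44379101 went the other way, with 99.3% in the 1 pro-B WT library that covered it, 100% in pro-B Tet3KO library 7 and 93.9% in pro-B DKO library 10. Pro-B DKO was also below Tet3KO on chromosome 6 at 55244801, with 57.1% against 71.4% and 1 library a group. On chromosome 10 at 79542701 the region means were 57.1% in Tet3KO and 50% in DKO, but over different tiles. At the 1 tile with a level in both, Tet3KO library 7 stood at 57.1% and DKO library 10 at 100%. The tile at 79542801 had no pro-B Tet3KO level and stood at 0 in DKO library 10.

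Wild-type pro-B cells divided the sites by their level before the follicular stage. Of 95 higher tiles with a level in at least 2 pro-B WT libraries, 76 were under 20% in pro-B WT already, and at these the median was 66.1% in pro-B DKO and 65.2% in follicular DKO. In 12 tiles pro-B WT was over 80%, with a median of 96.8%. At these 12 the follicular medians were 33.4% (WT), 50.7% (Tet2KO), 49.4% (Tet3KO) and 96.0% (DKO). Of the follicular genotypes DKO had the median nearest to that of pro-B WT. Choosing tiles higher in DKO than in Tet3KO and over 80% in pro-B WT favours this order, so it is a description. The split of all tiles by pro-B WT level is not given. Of these 12, 3 are given here, picked for their values. Chromosome 17, 86866801 to 86866900, was at 95.2% and 96.4% in pro-B WT libraries 2 and 3 and at 14.6%, 0% and 3.13% in follicular WT. Chromosome 7, 52496801 to 52496900, was at 100% in the same pro-B libraries. Its follicular means were 6.07% (WT), 21.3% (Tet2KO), 16.5% (Tet3KO) and 94.3% (DKO). Chromosome 1, 24742501 to 24742600, was likewise at 100% in pro-B WT and at 8.42%, 20.7%, 27.2% and 91.4% in the 4 follicular genotypes. Pro-B levels of 100% at single tiles can rest on few reads.

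Higher methylation was not limited to the called tiles, and the difference was largest close to them. At the 68 tiles directly beside a called tile and not called themselves, Tet3KO libraries stood at 34.7% to 37.1% and DKO libraries at 61.0% to 64.8%, a difference of 27.1 points. At 200 to 300 bp the difference was 13.01 points (68 tiles), at 400 to 500 bp 3.49 points (22 tiles). The decline was not steady, with 6.89 points at 600 to 1000 bp (28 tiles), 4.88 at 1100 to 2000 bp (40 tiles) and 2.73 at 2100 to 5000 bp (145 tiles). At 5100 to 10000 bp it was 0.920 points (272 tiles). In Tet3KO the mean was 54.0% at 200 to 300 bp and 16.2% at the called tiles, whereas in DKO it was 67.0% and 69.3%. The distance groups hold tiles of different sites, and some sites have no tile nearby, so the means do not trace the shape of single sites. Tiles next to each other can share reads, and the called tiles were chosen on these libraries, so the profile is a description.

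**Figure D4:**
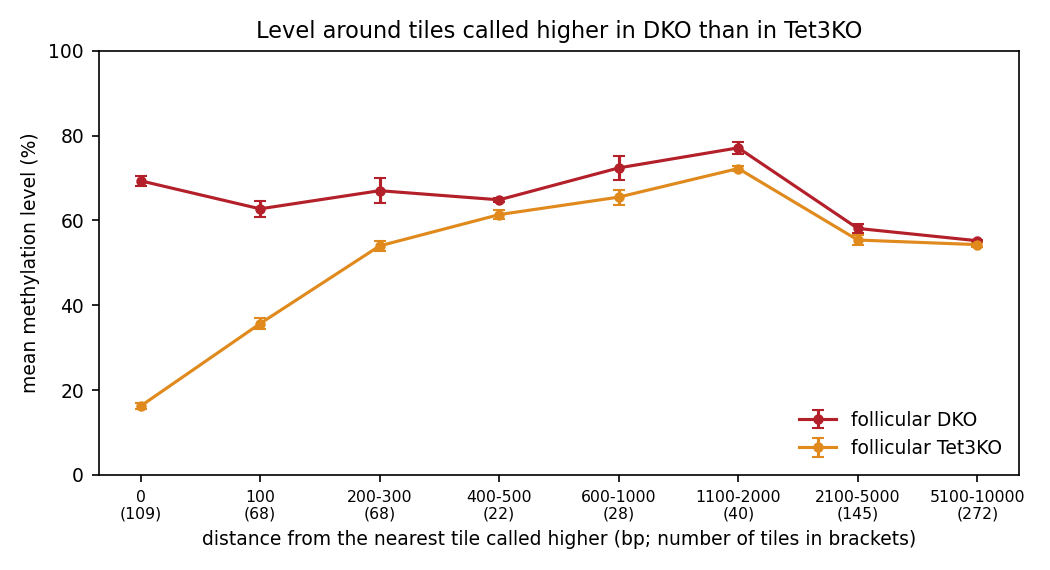
Mean methylation level (%, y axis) of follicular DKO and Tet3KO libraries at tiles grouped by distance in bp from the nearest tile called higher in DKO (x axis, number of tiles in brackets); points are means of 3 libraries and bars their SD. The Tet3KO line dips to 16.2% at the called tiles, while the DKO line stays between 55.2% and 77.1% throughout.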

How the data were processed

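Per the file headers, the authors deposited a methylation fraction between 0 and 1 for each 100 bp tile and each of 24 RRBS libraries, without reads or coverage. The submitters' processing notes list methylKit, Trim Galore and the builds hg19 and mm9. The aligner, tool versions, conversion rate and smallest coverage are not given in the sources used here. Coordinates are treated as mm9 and no other build was used. The 16 RNA samples were not analysed here.

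Fractions were multiplied by 100. Limma 3.58.1 (R 4.3.3) was fitted to the percentages tile by tile, with group (8 levels) as factor and all 24 libraries, missing levels left missing (4 to 16 residual degrees of freedom per tile) and a trended prior spread, and p-values were adjusted by Benjamini-Hochberg over all tiles of the set. Calls asked an adjusted p under 0.05 and 20 points, two-sided. Exact permutation tests (two-sided) compared library means. Region levels are means over the tiles of the span, for each library over the tiles it has, so libraries can differ in the tiles behind them. Named per direction were up to 12 regions, those of 2 or more called tiles first, by size of difference and without overlap between the groups; for the interaction, up to 6 tiles per direction. The fit was tested on simulated data. The tiles compared, the tile classes and the comparisons were chosen with earlier results of these data known; the classes by neighbours, by pro-B WT level and by distance were chosen after the data were seen. Alternatives changed the scale, the libraries in the fit, covariates, centring, the tile set and the thresholds, or left out a library.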

Additional observations from a re-analysis of the deposited data

Results flagged for a closer look

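The effect of Tet2 loss differed between cells with and without Tet3 at 14 tiles, 13 with a larger gain and 1 with a larger loss without Tet3, by limma's interaction contrast at an adjusted p under 0.05. The 6 largest gains were 98.5 points at chromosome 17, 86866801 to 86866900, 83.0 points at chromosome 5, 123774301 to 123774400, 82.0 points at chromosome 11, 5058301 to 5058400, 78.4 points at chromosome 5, 123774401 to 123774500, 77.0 points at chromosome 7, 118067201 to 118067300, and 76.4 points at chromosome 10, 79542801 to 79542900. Calls were lost on a logit scale at chromosome 11, at chromosome 5 from 123774401 and at chromosome 7, with sex and age strata at chromosomes 17 and 11, and with libraries centred at chromosome 17. The loss was -26.0 points at chromosome 6, 75028001 to 75028100, where follicular WT and Tet3KO stood at 100% in all 6 libraries, Tet2KO at 98.9% and DKO at 72.8%; that call was lost without WT library 15 or Tet2KO library 17, on a logit scale, with sex or strata as a covariate, with libraries centred and at 30 points.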

How the results depend on the processing

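The count of 109 higher tiles was 69 on a logit scale (56 of the 109 among them), 169 with only the 12 follicular libraries in the fit (82 shared), 36 with sex and age strata as a covariate (29 shared), 2 of 16026 tiles with a level in all 24 libraries, 0 with only the 6 compared libraries, and 181 of 464005 tiles with 2 levels per group. Leaving out a library gave 97 to 182, the latter without DKO library 23. The 6 lower tiles became 1 at 30 points, 0 in the 24-library set and in the 6-library fit, 30 with 2 levels per group, and 7 to 35 with a library left out. The 13 interaction gains became 7 on a logit scale (5 of the 13 among them), 41 in the 12-library fit (10 shared) and 12 with strata (6 shared). Their number was 2 in the 24-library set (none of the 13), 34 with 2 levels per group and 12 to 44 with a library left out. The 1 interaction loss became 4 in the 12-library fit, 18 with strata, 11 with 2 levels per group, 0 with sex as covariate, with libraries centred, at 30 points and in the 24-library set, and 0 to 19 with a library left out. With libraries centred, 88 tiles were higher and 5 lower. The mean difference reversed to -0.0581 points for the median of low tiles and to 0.0600 at high tiles classed by the 6 libraries, and ran from -0.0881 to 0.0791 at high tiles with a library left out. An alternative chosen after seeing the data, the Tet2KO comparison at the 105 tiles with all 12 follicular levels, gave 5.59 points. Other mean differences kept their direction under the settings run, though with a library left out they ran from 0.146 to 0.560 points over all tiles and from 0.423 to 2.46 at intermediate tiles. Of the 12 named higher regions, 9 kept a call on a logit scale, 6 with strata and 10 to 12 with a library left out. Calls from the 6-library fit gave no tiles for the Tet2KO and pro-B comparisons, and a coverage minimum could not be varied without coverage. No paired analysis was possible because the running numbers of the compared libraries differ between the groups and pair no samples. The cause of these changes was not tested.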
